A study of Saccharomyces cerevisiae with 20 samples.

Results

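The genes of trehalose synthesis and breakdown are described here in budding yeast that expressed 1 of 2 related RNA helicases at 30C or 37C. The set has 7 genes of the 6679 in the expression table, chosen by their known enzymatic roles and matched by systematic name. Earlier results of these data were known when it was chosen, so its shares beside those of all genes are a description. Synthesis is represented by TPS1 (YBR126C), TPS2 (YDR074W), TSL1 (YML100W) and TPS3 (YMR261C). Breakdown is represented by NTH1 (YDR001C), NTH2 (YBR001C) and ATH1 (YPR026W). The names match those that RefSeq gives the same systematic names in strain S288C.

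Trehalose is a non-reducing disaccharide of glucose that yeast stores, and it protects proteins and membranes during heat, drying and starvation. A multisubunit complex makes it from UDP-glucose and glucose 6-phosphate: Tps1 forms trehalose 6-phosphate, Tps2 removes the phosphate, and the related proteins Tsl1 and Tps3 are the regulatory subunits. Neutral trehalase in the cytosol, Nth1 with its paralog Nth2, and the acid trehalase Ath1 split trehalose back into glucose, and both arms of the cycle are known to be induced together by stress.

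The cells were SK1 strains with the DED1 regulatory regions in front of either the DED1 or the DBP1 coding sequence. They are called DED1 cells and DBP1 cells, and Ded1 and Dbp1 are DEAD-box helicases that assist the start of translation. The labels name no other allele, so the state of the native DBP1 gene in each strain is known here only from its reads. Cells grew in the rich glucose medium YEPD at 30C or 37C to an optical density of 0.6 and received 100 uM cycloheximide for 1 min. Each strain had 3 cultures at 30C and 2 at 37C, and each culture gave 1 library of polyadenylated mRNA and 1 of ribosome footprints, the fragments that ribosomes protect from nuclease. Cultures are numbered as in the labels. The 37C cultures are labelled as grown at that temperature, so the comparison is of growth at 2 temperatures, not of a short heat shock. The library titles tag the 30C and 37C sets as 30Cexp and 37exp. In comparisons of temperature, any difference in handling between these sets cannot be told apart from temperature.

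Depth was 3.94 to 9.69 M reads in the mRNA libraries and 4.82 to 9.39 M reads in the footprint libraries. The swapped genes matched the labels. DED1 mRNA lay between 40.9 and 54.2 RPKM (reads scaled by coding length and by the total of the library) in DED1 cells and between 0.0765 and 3.19 RPKM in DBP1 cells, and DBP1 mRNA lay between 3.64 and 6.50 RPKM in DED1 cells and between 98.3 and 130 RPKM in DBP1 cells. Differences were tested with limma on log2(RPKM + 1) over all genes whose mean in the assay reached 5 RPKM, and rose, fell, higher and lower as results of a test mean a Benjamini-Hochberg adjusted p under 0.05. Nothing in the labels says whether the numbered cultures were started separately, so p-values cover the spread between these samples, which may be partly technical. Each value is relative to its library's total, and in a bulk culture a higher level in every cell cannot be told apart from a larger share of cells with a high level.

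TPS1 was the most abundant of the genes and ATH1 the least abundant in mRNA in every group. In DED1 cells at 30C the order by mean mRNA was TPS1, TPS2, NTH1, TPS3, TSL1, NTH2 and ATH1, and the cultures of TPS2 and NTH1, of NTH1 and TPS3, and of TSL1 and NTH2 overlapped. TPS1 mRNA there, at 109 ± 32.6 RPKM (SD, n = 3), was above the median of all tested genes at 54.3 RPKM. The other genes were below that median, and ATH1, at 7.23 ± 1.14 RPKM, stood at the 4.51 percentile. Behind the mRNA values were 126 to 2926 reads per gene and library, and behind the footprint values 28 to 4528 reads. The lowest counts were those of NTH2 footprints in DED1 cells at 30C and of ATH1 footprints, so these are the least precise values. ATH1 footprints had a mean of 4.26 RPKM over all libraries, under the limit of 5 RPKM, and were not tested.

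TPS1 encodes the trehalose 6-phosphate synthase. Its mRNA in DED1 cells was 145, 101 and 81.1 RPKM in cultures 1 to 3 at 30C and 212 and 221 RPKM in cultures 1 and 2 at 37C. In DBP1 cells it was 143, 224 and 151 RPKM at 30C and 133 and 204 RPKM at 37C. The 37C cultures of DED1 cells lay above all their 30C cultures, whereas the groups overlapped in DBP1 cells. Footprints on TPS1 were 233, 162 and 133 RPKM in DED1 cells at 30C and 379 and 450 RPKM at 37C. In DBP1 cells they were 242, 411 and 297 RPKM at 30C and 262 and 376 RPKM at 37C. In footprints all DBP1 cultures at 30C were above all DED1 cultures at 30C, the closest pair being 242 and 233 RPKM.

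TPS2 encodes the phosphatase that finishes the synthesis. Its mRNA was 47.6, 42.7 and 31.2 RPKM in DED1 cells at 30C and 93.0 and 84.6 RPKM at 37C. In DBP1 cells it was 57.1, 98.8 and 63.9 RPKM at 30C and 62.6 and 70.4 RPKM at 37C. DED1 cells at 30C were the lowest of the 4 groups and overlapped none of the others. Footprints of TPS2 had the same order of group means, from 54.8 ± 12.2 RPKM in DED1 cells at 30C (SD, n = 3) to 114 ± 11.4 RPKM in DED1 cells at 37C (SD, n = 2). DBP1 cells lay between them, with 97.6 ± 27.8 RPKM at 30C (SD, n = 3) and 90.5 ± 17.0 RPKM at 37C (SD, n = 2).

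TSL1 encodes a large regulatory subunit and had the widest range of the synthesis genes, 6.44-fold over the 10 mRNA libraries and 8.48-fold over the footprint libraries. Its mRNA was 15.2, 8.81 and 6.99 RPKM in DED1 cells at 30C and 32.6 and 29.9 RPKM at 37C. In DBP1 cells it was 21.9, 45.1 and 24.9 RPKM at 30C and 12.9 and 27.8 RPKM at 37C. The cultures of DBP1 cells at 37C were thus far apart, and 1 of them lay below every DBP1 culture at 30C. Footprints were 23.5, 14.5 and 11.0 RPKM in DED1 cells at 30C and 62.5 and 57.3 RPKM at 37C. For DBP1 cells the values were 46.6, 93.1 and 64.0 RPKM at 30C and 25.3 and 56.7 RPKM at 37C. DED1 cells at 30C had fewer TSL1 footprints than each of the other groups, with no overlap.

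TPS3, the other regulatory subunit, differed least. Its mRNA was 30.0, 23.5 and 18.1 RPKM in DED1 cells at 30C and 44.1 and 36.2 RPKM at 37C, and in DBP1 cells 28.2, 31.0 and 24.2 RPKM at 30C and 37.6 and 33.6 RPKM at 37C. The 30C cultures of both strains overlapped. TPS3 footprints ranged only 1.71-fold over the 10 libraries, from 40.8 to 69.7 RPKM.

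**Figure D1:**
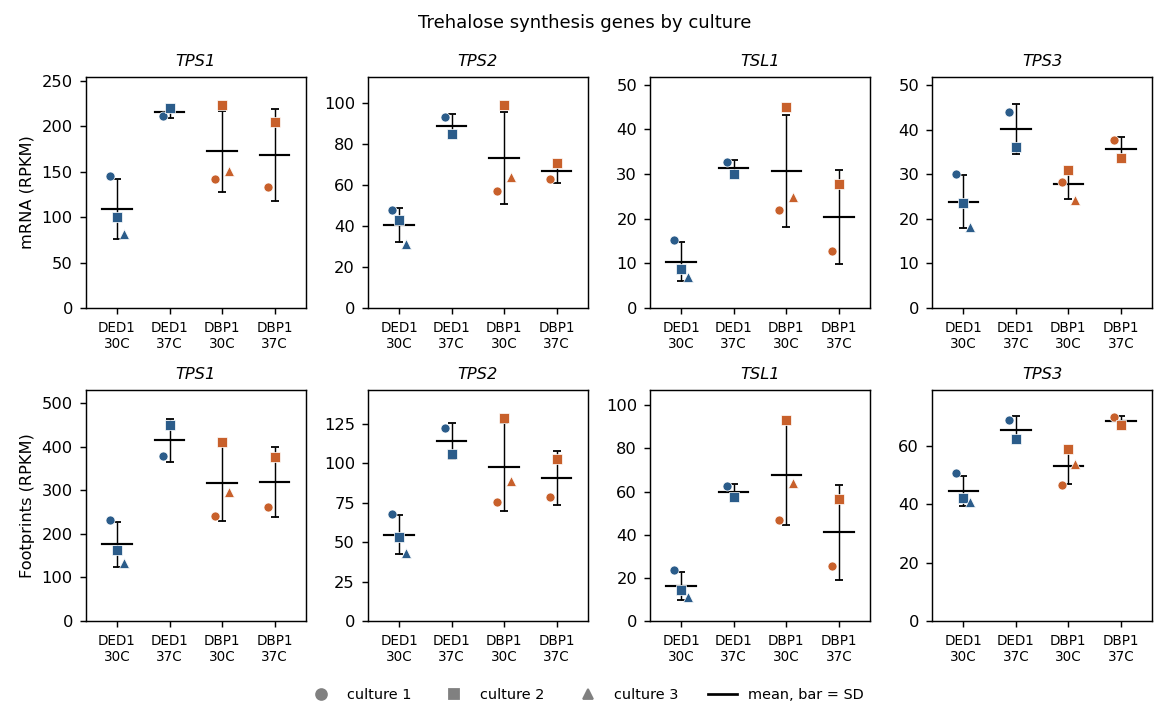
Levels of the 4 synthesis genes in every culture. Each point is 1 culture, with mRNA in RPKM in the upper row and footprints in RPKM in the lower row, on linear axes that start at 0 with lines for group means and bars for SD (n = 3 at 30C, n = 2 at 37C). DED1 cells at 30C have the lowest mean for each gene, as for TSL1 mRNA at 10.3 RPKM against 31.3 RPKM at 37C, while the DBP1 groups overlap between temperatures for TPS1, TPS2 and TSL1 mRNA.

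NTH1 encodes the main neutral trehalase. Its mRNA was 41.7, 34.0 and 27.0 RPKM in DED1 cells at 30C and 74.2 and 68.7 RPKM at 37C. In DBP1 cells it was 55.6, 68.7 and 50.6 RPKM at 30C and 60.1 and 69.2 RPKM at 37C. DED1 cells at 30C were again below all other groups without overlap, and the DBP1 groups overlapped each other. Footprint means were 32.8 ± 6.41 RPKM and 55.6 ± 10.8 RPKM at 30C in DED1 and DBP1 cells (SD, n = 3), and 78.0 ± 9.11 RPKM and 69.3 ± 5.26 RPKM at 37C (SD, n = 2).

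NTH2, the paralog of NTH1, was alone among the 7 genes in that no groups overlapped in either assay. How many of all genes do so was not counted. At 37C alone, 26.6% of all genes tested had both DBP1 cultures below both DED1 cultures in mRNA. NTH2 did not pass between strains at 37C in limma (adjusted p = 0.569 in mRNA and 0.443 in footprints). Its mRNA was 11.5, 9.95 and 8.39 RPKM in DED1 cells at 30C, 20.1, 21.3 and 21.4 RPKM in DBP1 cells at 30C, 32.9 and 41.2 RPKM in DBP1 cells at 37C and 44.3 and 45.0 RPKM in DED1 cells at 37C. No group overlapped its neighbour in that order. Footprints followed with 4.20, 2.93 and 1.90 RPKM in DED1 cells at 30C, 8.50, 8.51 and 9.37 RPKM in DBP1 cells at 30C, 13.2 and 12.5 RPKM in DBP1 cells at 37C and 18.7 and 15.7 RPKM in DED1 cells at 37C. These groups did not overlap either, and the full span was 9.82-fold, the widest of the 7 genes.

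ATH1, the acid trehalase, was the scarcest. Its mRNA was 8.35, 7.27 and 6.08 RPKM in DED1 cells at 30C and 17.3 and 15.0 RPKM at 37C, and in DBP1 cells 8.88, 11.2 and 8.55 RPKM at 30C and 14.2 and 13.9 RPKM at 37C. The 37C cultures were above the 30C cultures in both strains, and no groups overlapped in mRNA, in the same order as for NTH2. The share of all genes without overlap was again not counted. Footprints were 2.32, 2.45 and 1.74 RPKM in DED1 cells at 30C, 3.61, 4.98 and 3.83 RPKM in DBP1 cells at 30C, 6.98 and 5.36 RPKM in DED1 cells at 37C and 5.49 and 5.87 RPKM in DBP1 cells at 37C.

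**Figure D2:**
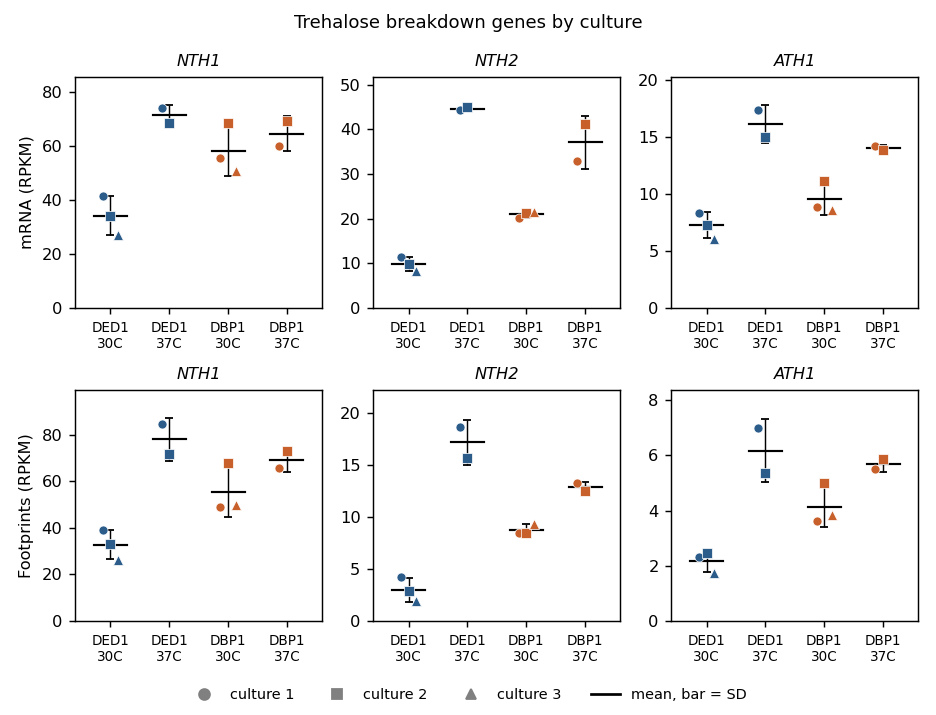
Levels of the 3 breakdown genes in every culture. Points are cultures, with mRNA in RPKM above and footprints in RPKM below on linear axes from 0; lines are means and bars SD (n = 3 at 30C, n = 2 at 37C). NTH2 mRNA steps from a mean of 9.95 RPKM in DED1 cells at 30C to 20.9 RPKM in DBP1 cells at 30C, 37.1 RPKM in DBP1 cells at 37C and 44.7 RPKM in DED1 cells at 37C, with no overlap. The step between strains at 37C did not pass the limma test.

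The comparison of strains at 30C asked what changes when Dbp1 takes the place of Ded1 at the usual growth temperature. DBP1 cells held more mRNA of TPS2, TSL1, NTH1 and NTH2, which is 4 of the 7 genes, against 8.03% of all 5454 genes tested that were higher and 1.27% that were lower. Genes of both synthesis and breakdown were among them. NTH2 mRNA was 2.02-fold higher (log2 difference 1.01 ± 0.12 SE, limma adjusted p = 0.00093) and TSL1 mRNA 2.78-fold higher (1.48 ± 0.34, adjusted p = 0.0233), folds being those of RPKM + 1. NTH1 was 1.70-fold higher (0.76 ± 0.16, adjusted p = 0.0139) and TPS2 1.77-fold higher (0.82 ± 0.20, adjusted p = 0.0292). TPS1, at 0.67 ± 0.23 (adjusted p = 0.107), ATH1, at 0.36 ± 0.15 (adjusted p = 0.181), and TPS3, at 0.23 ± 0.17 (adjusted p = 0.406), did not pass. The median log2 difference over the 7 genes was 0.76, beside 0.04 over all genes tested. All DBP1 cultures were above all DED1 cultures in mRNA for 5 of 7 genes, TPS2, TSL1, NTH1, NTH2 and ATH1, beside 20.7% of all genes tested.

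Footprints at 30C were higher in DBP1 cells on 5 of the 6 genes tested, all but TPS3, against 10.4% of 4986 genes higher and 3.09% lower. TSL1 footprints were 3.99-fold higher (SE 0.34 on the log2 scale, limma adjusted p = 0.00605) and NTH2 footprints 2.51-fold higher (1.33 ± 0.19, adjusted p = 0.00232). TPS1, TPS2 and NTH1 differed by 0.74 to 0.85 on the log2 scale, with adjusted p of 0.044, 0.0326 and 0.0167, and TPS3 by 0.25 ± 0.11 (adjusted p = 0.154). ATH1 footprints, in a fit without the filter on low values, were higher by 0.70 ± 0.15 (adjusted p = 0.0212). The cultures of the strains separated, with DBP1 cells above, for 6 of 7 genes in footprints, all but TPS3, beside 23.5% of all genes tested. ATH1 is counted there but lies outside the genes tested, as in the other counts of separated footprints. NTH2 in both assays and TSL1 in footprints passed without any single culture. The other calls hung on single cultures. In mRNA, TPS2 and TSL1 were lost without DBP1 culture 2 or DED1 culture 2 or 3 (adjusted p = 0.0653 to 0.103), TPS2 also without DBP1 culture 3 (adjusted p = 0.0503), and NTH1 without DBP1 culture 2 (adjusted p = 0.0506), which leaves 1 gene called without DBP1 culture 2 and 2 without DED1 culture 2 or 3. In footprints, TPS1 and TPS2 were lost without culture 2 or 3 of either strain (adjusted p = 0.0697 to 0.154) and NTH1 without DBP1 culture 2 or DED1 culture 2 or 3 (adjusted p = 0.0501 to 0.0561), which leaves 2 or 3 genes called. With median-of-ratios scaling the split of all footprint calls went from 518 higher and 154 lower to 369 and 248, and TPS1 footprints had an adjusted p of 0.0605, and with no filter one of 0.0559.

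The cultures within a group moved together across these genes. In DED1 cells at 30C, culture 1 had the highest mRNA of all 7 genes and culture 3 the lowest. In DBP1 cells at 30C, culture 2 had the highest mRNA of 6 genes and the highest footprints of 6, and culture 1 had the lowest footprints of all 7. The 7 genes are therefore not 7 separate observations of a strain difference. The Pearson correlation of mRNA values over the 10 libraries between any pair of the genes ran from 0.632 for TSL1 with TPS3 to 0.954 for TPS1 with TSL1, as a description over libraries that share cultures.

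At 37C, no gene of the set passed the test between strains. In mRNA 0 of 7 passed in limma, beside 0.055% of all genes, and none had an unadjusted p under 0.05, beside 10.6% of all genes. In footprints 0 of 6 passed, beside 0.963% of all genes, and none had an unadjusted p under 0.05, beside 16.5%. The estimates for mRNA were all below 0, from -0.14 for NTH1 (95% interval -0.57 to 0.28) to -0.69 for TSL1 (-1.61 to 0.23), with TPS1 at -0.39, TPS2 at -0.41, TPS3 at -0.16, NTH2 at -0.27 and ATH1 at -0.19. In footprints TPS3 was at 0.07 and the other 5 genes tested were below 0, from -0.17 for NTH1 to -0.64 for TSL1. With 2 cultures a group these intervals are wide, and for TSL1 they include a 2-fold lower level. The DBP1 cultures lay below both DED1 cultures for TPS1, TPS2, TSL1, NTH2 and ATH1 mRNA, 5 of 7 genes, whereas 26.6% of all genes separated that way.

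Temperature was compared within each strain to ask whether growth at 37C changes the genes in the same way under either helicase. In DED1 cells all 7 mRNAs were higher at 37C, beside 43.1% of all genes, and all 6 genes tested were higher in footprints, beside 38.9%. NTH2 rose most, 4.20-fold in mRNA (log2 difference 2.07 ± 0.14 SE, limma adjusted p = 1.34e-05) and 4.65-fold in footprints (2.22 ± 0.21, adjusted p = 6.44e-05). TSL1 rose 2.98-fold in mRNA (1.57 ± 0.38, adjusted p = 0.0065) and 3.67-fold in footprints (1.88 ± 0.38, adjusted p = 0.00305). TPS1, TPS2, NTH1 and ATH1 mRNA rose 2.03-fold to 2.19-fold, and TPS3 mRNA 1.68-fold. TPS3 footprints rose 1.47-fold (0.55 ± 0.12, adjusted p = 0.00459). Both 37C cultures were above all 30C cultures for each of the 7 genes in mRNA, beside 56.5% of all genes, and for each in footprints, beside 52%.

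These temperature values include a shift that most genes shared. The median over all genes was 0.26 in mRNA and 0.21 in footprints for DED1 cells, and median-of-ratios scaling, which sets it near 0, changed the split of all calls from 2349 higher and 560 lower to 925 and 1180 in mRNA, and from 1942 and 679 to 1001 and 1197 in footprints. The medians of the members were 1.06 and 1.25, well above that shift. With this scaling 6 of 7 mRNAs and 6 of 6 footprint values still passed as higher, and TPS3 mRNA, at 0.48 ± 0.18 (adjusted p = 0.0572), did not. TPS3 mRNA was also lost without DED1 culture 1 at 37C (adjusted p = 0.0704). Without the filter on low values, ATH1 footprints were higher at 37C by 1.18 ± 0.17 (adjusted p = 0.000754).

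In DBP1 cells the same comparison called a share of these genes close to that of all genes. NTH2 and ATH1 mRNA were higher at 37C, 2 of 7 genes beside 30% of all genes, and TPS3 alone of 6 was higher in footprints, beside 21.2%. The 37C cultures lay above all 30C cultures for TPS3, NTH2 and ATH1 in both assays, 3 of 7 genes, beside 46.2% of all genes in mRNA and 37.7% in footprints. NTH2 mRNA was 1.72-fold higher (log2 difference 0.79 ± 0.14 SE, limma adjusted p = 0.00193) and kept its call in every alternative fit run. ATH1 mRNA was higher by 0.52 ± 0.17 (adjusted p = 0.0323) and TPS3 footprints by 0.37 ± 0.12 (adjusted p = 0.0382). Both were lost with median-of-ratios scaling (adjusted p = 0.114 and 0.0788) and without DBP1 culture 1 or 3 at 30C, or with either DBP1 culture at 37C left out (adjusted p = 0.0702 to 0.148). TPS1 mRNA was at -0.04 ± 0.26 and TPS2 mRNA at -0.10 ± 0.22, and the sign of both changed when a culture was left out. TSL1 was at -0.59 ± 0.38 in mRNA and -0.77 ± 0.38 in footprints (adjusted p = 0.225 and 0.14), and its footprints passed as lower without DBP1 culture 2 at 37C (-1.33, adjusted p = 0.0376). NTH1 was at 0.15 ± 0.17 and 0.33 ± 0.18 (adjusted p = 0.483 and 0.178), TPS3 mRNA at 0.35 ± 0.19 (adjusted p = 0.147) and NTH2 footprints at 0.50 ± 0.21 (adjusted p = 0.085). TPS1 and TPS2 footprints were at 0.02 ± 0.27 and -0.08 ± 0.24. The median over the 7 mRNAs, 0.15, was below that over all genes, 0.18, while the median over the 6 footprint values, 0.17, was above that over all genes, 0.10. Here median-of-ratios scaling changed the split of all calls from 1635 higher and 715 lower to 713 and 1049 in mRNA and from 1059 and 879 to 760 and 1038 in footprints.

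**Figure D3:**
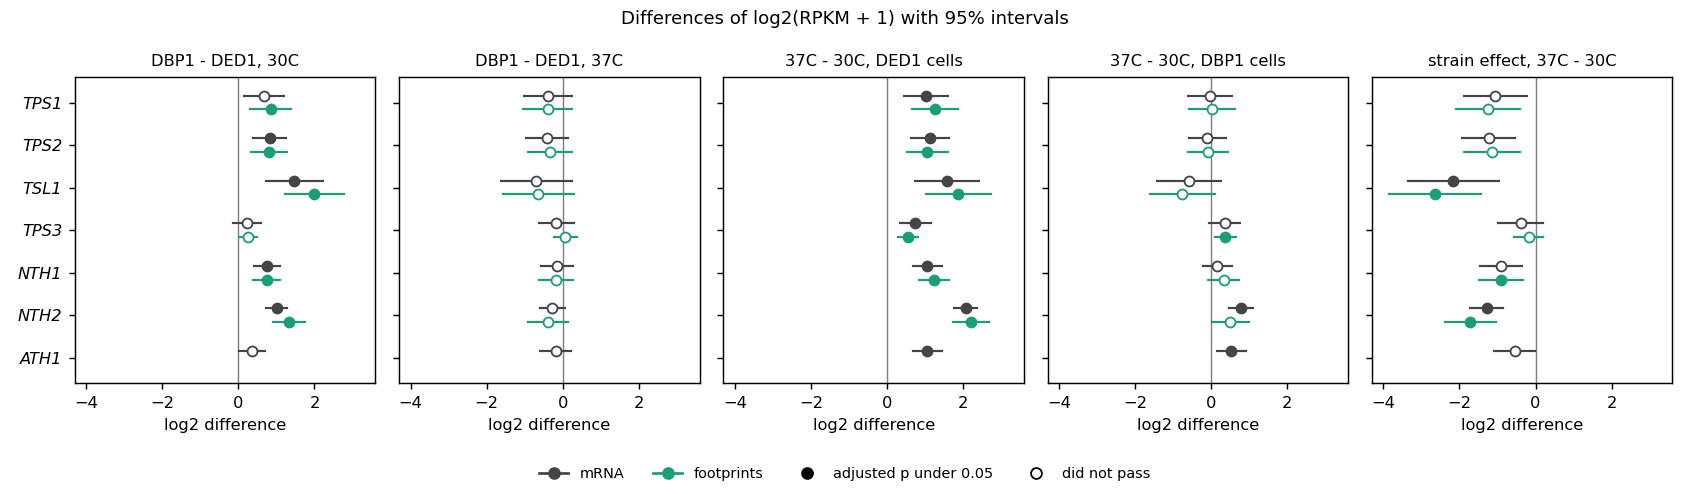
Differences of log2(RPKM + 1) for the 7 genes in the 5 comparisons. Circles are limma estimates for mRNA (grey) and footprints (green), lines are 95% intervals, and filled circles have an adjusted p under 0.05; ATH1 footprints were not tested. The first panel has 4 filled circles for mRNA and 5 for footprints, the second none, and the third is filled for all genes tested.

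Whether the temperature effect differed between the strains was tested directly. The effect in DBP1 cells minus that in DED1 cells was below 0 for 2 of 7 mRNAs, TSL1 and NTH2, beside 5.06% of all genes. In footprints it was below 0 for 3 of 6 values, TSL1, NTH1 and NTH2, beside 10%. By the estimates, NTH1 and NTH2 had a smaller rise at 37C in DBP1 cells. TSL1 was instead lower there, at -0.59 in mRNA and -0.77 in footprints, which did not pass. This test shares its libraries with the comparisons above and is not separate evidence. NTH2 differed by -1.28 ± 0.20 in mRNA (limma adjusted p = 0.0065) and -1.71 ± 0.30 in footprints (adjusted p = 0.00944) and passed in each alternative fit that tested it. TSL1 differed by -2.17 ± 0.54 in mRNA (adjusted p = 0.0465) and -2.64 ± 0.54 in footprints (adjusted p = 0.0171). NTH1 footprints differed by -0.91 ± 0.26 (adjusted p = 0.0482). The other genes did not pass. TPS2 was at -1.23 ± 0.31 in mRNA and -1.15 ± 0.33 in footprints (adjusted p = 0.0507 and 0.0521), and TPS1 at -1.06 ± 0.37 and -1.24 ± 0.38 (adjusted p = 0.121 and 0.0602). NTH1 mRNA was at -0.91 ± 0.25 (adjusted p = 0.0592) and ATH1 mRNA at -0.54 ± 0.24 (adjusted p = 0.207). TPS3 differed by -0.40 ± 0.26 and -0.19 ± 0.17 (adjusted p = 0.391 and 0.495).

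The TSL1 mRNA value was lost with median-of-ratios scaling (adjusted p = 0.0615), with no filter (adjusted p = 0.063), and with any of these cultures left out: 2 or 3 of DBP1 cells or of DED1 cells at 30C, 1 of DBP1 cells at 37C, and either of DED1 cells at 37C (adjusted p = 0.0704 to 0.14). The TSL1 footprint value was lost only without DED1 culture 1 at 37C (adjusted p = 0.0627). The NTH1 footprint value was lost with median-of-ratios scaling, with no filter and without any single culture other than DED1 culture 1 at 30C (adjusted p = 0.0617 to 0.156). Over all genes, the median difference was -0.10 in mRNA and -0.14 in footprints, and the split of footprint calls went from 95 higher and 501 lower to 187 and 298 with median-of-ratios scaling.

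Translation efficiency, footprint RPKM divided by mRNA RPKM, set synthesis apart from breakdown in level. TPS1, TPS2, TSL1 and TPS3 had group means of 1.29 to 2.25, where the median over all genes was 0.641 to 0.670, and stood at the 88.2 to 97.5 percentile. NTH1, at 0.951 to 1.09, stood at the 74.3 to 83.0 percentile. NTH2, at 0.295 to 0.420, and ATH1, at 0.300 to 0.434, stood at the 7.43 to 20.1 percentile. ATH1 was ranked against the genes tested, although it is not among them. NTH1 and NTH2 mRNA thus differed 1.60-fold in DED1 cells at 37C on the per-length scale, while their footprints differed 4.54-fold. The mRNA and footprint libraries were made from fragments of different size, so a ratio between genes can hold counting differences, which were not tested.

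Within a gene, no efficiency passed a test. The count was 0 of 6 genes in each of the 5 limma comparisons, beside 0.0402%, 0.0201%, 0.985%, 1.02% and 0% of all 4977 genes, and none had an unadjusted p under 0.05 in this fit, which ignores that the libraries of a culture are paired. The largest estimate among the 6 genes tested was that of TSL1 between strains at 30C, 0.52 with a 95% interval of -0.61 to 1.65. These estimates are of RPKM + 1, which weighs most on genes with low values, so their order need not be that of the plain ratios. At 30C the mean plain ratio in DED1 and DBP1 cells was 1.59 and 2.25 for TSL1. It was 0.295 and 0.420 for NTH2, and 0.300 and 0.434 for ATH1. By culture, TSL1 efficiency was 1.55, 1.65 and 1.57 in DED1 cells and 2.13, 2.07 and 2.57 in DBP1 cells at 30C, without overlap. The same was seen for TPS1, NTH2 and ATH1, which makes 4 of 7 genes, beside 7.41% of all genes tested. ATH1 is not among the genes tested. With the mRNA and footprint libraries of a culture paired in the model, the TSL1 estimate at 30C was the same with an SE of 0.11, a 95% interval of 0.28 to 0.77 and an adjusted p of 0.113. Again 0 of 6 genes passed in each comparison, although the calls over all genes rose from 2, 1, 49, 51 and 0 to 9, 2, 334, 279 and 0. Unadjusted p-values under 0.05 in the paired fit were those of TPS1 and TSL1 between strains at 30C, beside 6.71% of all genes, of TPS1 and TSL1 between temperatures in DED1 cells, beside 22.5%, and of TSL1 in the difference of effects, beside 6.43%. The paired interval for TSL1 lies above 0 and below a 2-fold change, but it is not adjusted for the number of genes tested.

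**Figure D4:**
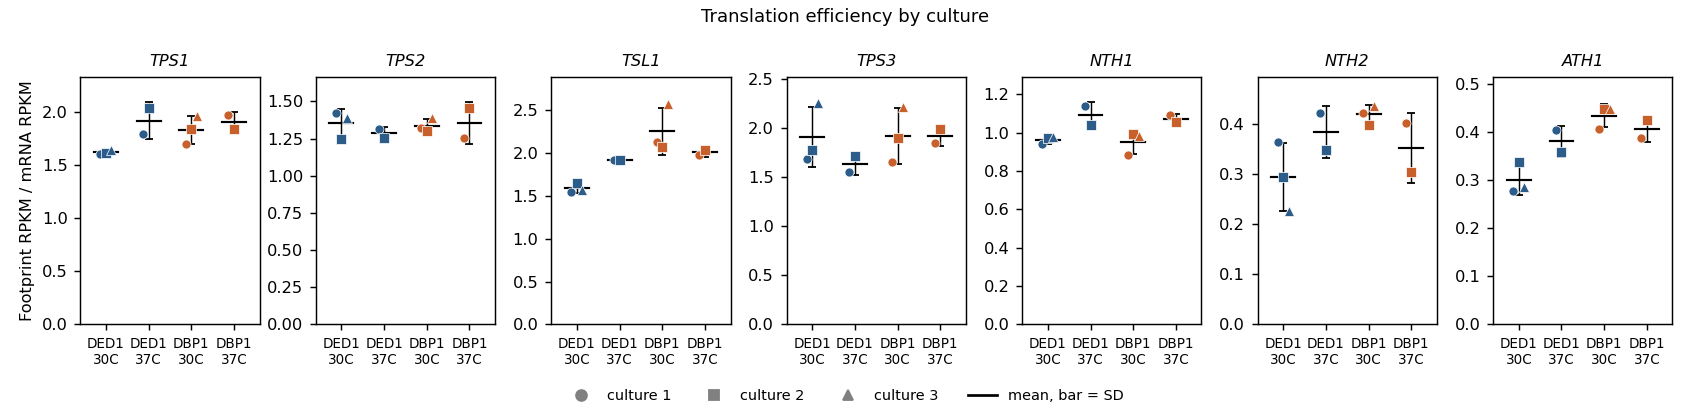
Translation efficiency of each gene, as footprint RPKM divided by mRNA RPKM, on linear axes that start at 0. Points are cultures, lines means and bars SD (n = 3 at 30C, n = 2 at 37C). The synthesis genes lie between 1.25 and 2.57 in every culture, NTH1 between 0.882 and 1.14, and NTH2 and ATH1 between 0.227 and 0.448.

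Ratios taken within a culture showed how the paralogs shifted against each other. TSL1 mRNA was 0.423 ± 0.0742 of TPS3 mRNA in DED1 cells at 30C and 1.09 ± 0.343 in DBP1 cells at 30C (SD, n = 3), and 0.784 ± 0.0616 and 0.585 ± 0.343 at 37C (SD, n = 2). TSL1 thus made up 29.6% of the mRNA of both regulatory subunits in DED1 cells at 30C and 51.2% in DBP1 cells. In footprints the ratio was 0.361 ± 0.0996 and 1.26 ± 0.299 at 30C, and 0.917 ± 0.00853 and 0.605 ± 0.341 at 37C. The cultures of both strains did not overlap at 30C in either assay. NTH1 mRNA was 3.42 ± 0.199 times NTH2 mRNA in DED1 cells at 30C and 2.78 ± 0.431 times in DBP1 cells, and 1.60 ± 0.104 and 1.75 ± 0.105 times at 37C. In footprints NTH1 led 11.5 ± 2.27 times and 6.35 ± 1.44 times at 30C and 4.54 ± 0.0375 and 5.39 ± 0.615 times at 37C. NTH2 thus rose from 8.19% to 18.0% of neutral trehalase footprints between 30C and 37C in DED1 cells in group means, with no overlap between cultures.

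The ratio of TPS1 to NTH1, the synthase to the main trehalase, overlapped in all 4 comparisons of both assays. In mRNA it was 3.15 ± 0.286 and 2.94 ± 0.349 at 30C and 3.03 ± 0.255 and 2.58 ± 0.524 at 37C, in DED1 and DBP1 cells. The ratio of TPS1 to TPS2 mRNA likewise stayed between group means of 2.38 and 2.67. Two-sided exact permutation tests over cultures gave at best p = 0.1 for 3 against 3 cultures, 0.2 for 2 against 3 and 0.333 for 2 against 2, the smallest values these sizes allow, so no ratio could pass, and the lowest adjusted p over the 32 tests was 0.64.

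**Figure D5:**
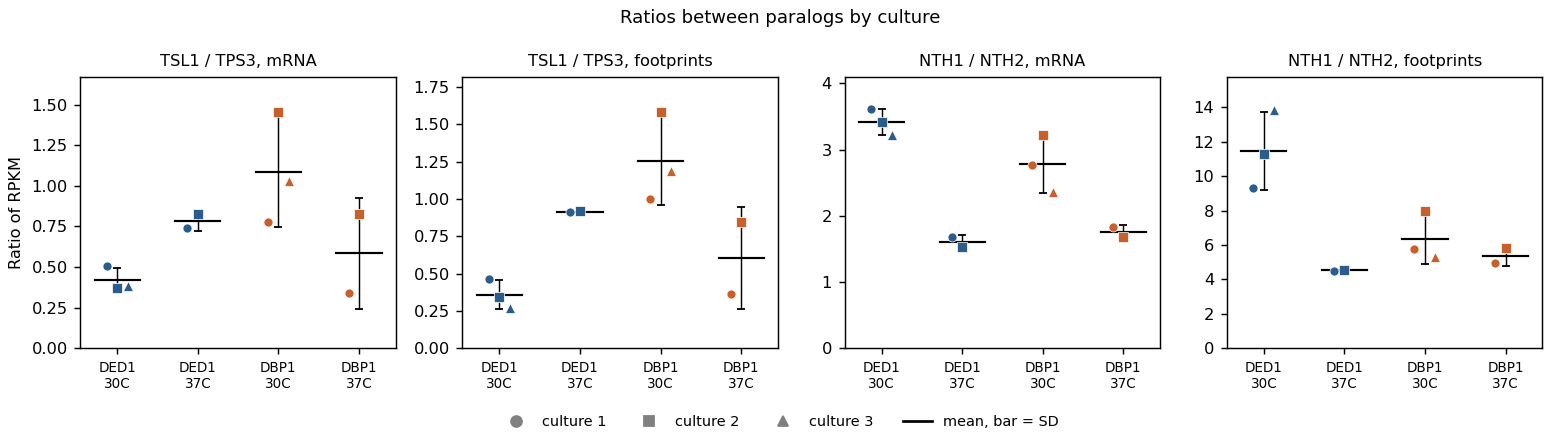
Ratios of RPKM within a culture between the regulatory subunits TSL1 and TPS3 and between the neutral trehalases NTH1 and NTH2, in mRNA and footprints, on linear axes from 0. Points are cultures, lines means and bars SD (n = 3 at 30C, n = 2 at 37C). The mean TSL1 to TPS3 ratio is lowest in DED1 cells at 30C, at 0.423 in mRNA, and the mean NTH1 to NTH2 ratio highest there, at 3.42 in mRNA and 11.5 in footprints.

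The other genes of the pathway were read from lists of 7 genes that supply glucose 6-phosphate and UDP-glucose, 9 that control neutral trehalase or trehalose uptake, 5 transcription regulators of stress genes and 7 glycogen genes. At 30C, DBP1 cells held more mRNA of 2 of 7 supply genes, beside 8.03% of all genes. They were the glucokinase GLK1 (2.51-fold, limma adjusted p = 0.00898) and the phosphoglucomutase PGM2 (2.87-fold, adjusted p = 0.00974). In footprints 4 supply genes were higher, beside 10.4% of all genes, and 2, the hexokinase HXK2 and the minor phosphoglucomutase PGM1, were lower, beside 3.09%. With median-of-ratios scaling 2 were higher and 2 lower in footprints. With culture 2 or 3 of either strain left out, 2 were higher and 0 lower, without DBP1 culture 1 the counts were 4 and 0, and without DED1 culture 1 they were 4 and 1. Of 8 tested trehalase regulators 2 were higher in mRNA, beside the same 8.03% of all genes. They were DCS2 (4.20-fold, adjusted p = 0.000587) and its paralog DCS1 (1.71-fold, adjusted p = 0.0142), Dcs1 having been reported as an inhibitor of Nth1. Without DED1 culture 3 this count was 1, and without DED1 culture 1 it was 4. Of the 5 transcription regulators 0 passed in limma in either assay, and 1, MSN4, had an unadjusted p under 0.05 in each (limma adjusted p = 0.107 in mRNA and 0.0951 in footprints). In footprints 1 passed without DBP1 culture 3. Glycogen genes were higher for 4 of 7 in mRNA, led by the phosphorylase GPH1 (4.95-fold, adjusted p = 0.00114), the debranching enzyme GDB1 (2.40-fold, adjusted p = 0.00304) and the synthase GSY2 (2.66-fold, adjusted p = 0.0103). Their share, like that of the trehalose genes, was above the 8.03% of all genes, and no test was made between the lists.

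In DED1 cells, 3 of 7 supply genes were higher in mRNA at 37C, a share like the 43.1% of all genes. They were the hexokinase HXK1 (3.71-fold, limma adjusted p = 0.00142), UGP1, which makes UDP-glucose (1.67-fold, adjusted p = 0.00444), and EMI2, a homolog of glucokinase (2.34-fold, adjusted p = 0.00528). All 5 transcription regulators rose in mRNA, among them the heat shock factor HSF1 (1.57-fold, adjusted p = 0.00157) and the stress factor MSN4 (2.28-fold, adjusted p = 0.00169), beside the 43.1% of all genes that did. With median-of-ratios scaling, or without DED1 culture 2 at 37C, 3 of 5 did. In footprints only MSN4 and the kinase gene RIM15 were higher, 2 of 5 beside 38.9% of all genes, and 1 was higher and 1 lower with that scaling. The footprint count was 1 without DED1 culture 2 or 3 at 30C or culture 1 at 37C. Trehalase regulators rose in mRNA for 5 of 8, beside the 43.1% of all genes, but for 0 with median-of-ratios scaling. The count was 3 without DED1 culture 2 or 3 at 30C, and it also fell when either DED1 culture at 37C was left out. Glycogen genes rose in mRNA for 4 of 7, beside the same 43.1%, and for 1 with that scaling. Their count also fell without DED1 culture 1 at 37C.

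In DBP1 cells at 37C the glycogen genes were lower for 4 of 7 in mRNA, beside 13.1% of all genes, among them GPH1 (log2 difference -1.31 ± 0.33 SE, limma adjusted p = 0.0104). They were lower for 4 of 6 in footprints, beside 17.6%, among them GDB1 (-2.02 ± 0.20, adjusted p = 6.33e-05), while none of the trehalose genes was lower. The difference between these lists was not tested. The mRNA count was 2 without DBP1 culture 1 or 2 at 30C, 1 without culture 1 of DBP1 cells at 37C and 0 without culture 2 at 37C, and the footprint count was 2 without DBP1 culture 2 at 30C or either DBP1 culture at 37C. DCS2 was lower in mRNA (-2.11 ± 0.25, adjusted p = 0.000226). Of the 7 supply genes 2 were lower and 2 higher, in mRNA and also in footprints. Of all genes, 13.1% were lower and 30% higher in mRNA, and 17.6% lower and 21.2% higher in footprints. In mRNA, GLK1 and PGM2 were lower, at -1.38 ± 0.27 and -1.45 ± 0.32 (adjusted p = 0.0034 and 0.00564), and HXK2 and PGM1 were higher, at 0.52 ± 0.12 and 0.26 ± 0.09 (adjusted p = 0.00593 and 0.0322). PGM1 was lost with median-of-ratios scaling and with any single DBP1 culture left out, and HXK2 and PGM2 without culture 1 of DBP1 cells at 37C (adjusted p = 0.0538 and 0.0501). The temperature effect in DBP1 cells minus that in DED1 cells was below 0 for GPH1 (-2.91 ± 0.46, adjusted p = 0.00761), GDB1 (-1.47 ± 0.30, adjusted p = 0.021), DCS2 (-2.47 ± 0.36, adjusted p = 0.00554) and PGM2 (-2.15 ± 0.45, adjusted p = 0.0251) in mRNA. The counts were 2 of 7 glycogen genes, 1 of 8 trehalase regulators and 3 of 7 supply genes, beside 5.06% of all genes. GPH1 and DCS2 passed in every alternative fit, whereas GDB1 was lost without culture 1 at 37C of either strain (adjusted p = 0.0578 and 0.0916). The supply count fell to 0, with PGM2 at an adjusted p of 0.0504 to 0.102, when DBP1 culture 1 at 37C, DED1 culture 2 at 30C or either DED1 culture at 37C was left out, and to 1 without culture 2 or 3 of DBP1 cells or culture 3 of DED1 cells at 30C, with median-of-ratios scaling or with no filter. Without DED1 culture 1 at 30C the glycogen count was 4.

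Markers of other cell states moved with some of these groups, and their part in the results was not tested. Glucose-repressed genes are known to be less active while glucose lasts. The summed mRNA of 8 of them was 74.4 to 81.8 RPKM in DED1 cells and 105 to 198 RPKM in DBP1 cells at 30C. It was 89.7 to 101 RPKM and 79.8 to 90.9 RPKM at 37C. This sum mixes unlike members. The ICL1 mean at 30C was 76.6 RPKM with Dbp1 against 20.6 RPKM with Ded1. SUC2 alone had a lower mean with Dbp1 there, 41.7 against 43.7 RPKM. From 30C to 37C in DED1 cells, SUC2 went from 43.7 to 65.6 RPKM, and PCK1, ADH2 and ADY2 also had higher means. ICL1 went from 20.6 to 13.6 RPKM, and MLS1, FBP1 and JEN1 also had lower means. Of the listed genes 3 reached the limit for testing in mRNA. ICL1, an enzyme of the glyoxylate cycle, was the only one of them higher in DBP1 cells at 30C (3.25-fold, limma adjusted p = 0.0166). That call was lost without DBP1 culture 3 (adjusted p = 0.0509). Within DBP1 cells at 30C the sum was highest in culture 1, which had the lowest footprints of all 7 trehalose genes. It was lowest in culture 2, which had the highest footprints of 6. In mRNA, culture 1 was lowest for 4 of the 7 trehalose genes and culture 3 for 3. Whether the sum and these levels are linked was not tested. The summed mRNA of 7 meiotic genes was 16.5 to 22.7 RPKM in DED1 cells and 18.4 to 21.5 RPKM in DBP1 cells at 30C, and 40.8 to 48.1 RPKM and 40.1 to 42.3 RPKM at 37C. The members differed, since in DED1 cells the means went from 5.40 to 15.5 RPKM for IME1, 7.51 to 14.1 RPKM for ZIP1 and 0.852 to 9.39 RPKM for REC8, but from 0.484 to 0.450 RPKM for NDT80 and 2.99 to 2.66 RPKM for SPO11. The late meiotic kinase gene SMK1 was listed at 0 in 9 of 10 footprint libraries, and footprints of the glucose-repressed gene FBP1 at 0 in 2.

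Over the 10 mRNA libraries, some genes had a pattern very close to that of a trehalose gene, by Pearson correlation of log2(RPKM + 1) among 5447 genes. Among the nearest to TPS1 were UGP1 (0.984) and ADP1 (0.975), and among the nearest to TPS2 were YPC1 (0.980) and BPT1 (0.979). TMA17 (0.981), MRP8 (0.978) and GID11 (0.969) were nearest to TSL1, and ECM21 (0.989), MON2 (0.988) and APE3 (0.982) to TPS3. Those nearest to NTH1 were ARA1 (0.995), SDS24 (0.988) and PGC1 (0.986), to NTH2 SOD1 (0.992), RIE1 (0.986) and YEF1 (0.986), and to ATH1 LAM5 (0.998), AZF1 (0.991) and YLR001C (0.990). These are the highest of many values over few libraries that share group means, and are given as a description.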

How the data were processed

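The samples were 20 libraries of SK1 yeast, 10 of mRNA and 10 of footprints of 28 to 31 nt. Groups and culture numbers came from the sample labels. The authors deposited 1 table of RPKM values for 6679 genes. Bowtie2, CASAVA and bcl2fastq 2.17 are named in the submitters' processing notes. The build, the program that counted reads and how it handled reads matching paralogs are each not given in the sources used here, so no coordinates are printed. In the table's second header line 2 column names miswrite the strain number and 1 mRNA column is named as footprints, and columns were assigned by the labels of the samples.

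Depth and reads per gene were recovered from the steps of the RPKM values with RefSeq coding lengths shortened by 60 nt. The values came out whole within a tolerance of 0.02 reads in all libraries for 5065 of 6325 genes with reads, the 7 members included. RefSeq names (S288C, release R64) matched 5994 genes.

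Tests used limma 3.58.1 in R 4.3.3 on log2(RPKM + 1), with 1 mean per group, eBayes with an intensity trend, a mean of at least 5 RPKM and Benjamini-Hochberg adjustment over all genes tested. Translation efficiency was the footprint effect minus the mRNA effect over all 20 libraries. Ratios within cultures were compared by two-sided exact permutation tests. The fits were tested on simulated data. The named genes are the 7 members and, of each pathway list, up to 3 genes with the smallest adjusted p, beside a few named because a small count rests on them. Of the genes nearest in pattern to a member, up to 3 are named, and some are not reported here. The members and lists were chosen with earlier results of these data known. Residuals of mRNA and footprints of 1 culture correlated at 0.240 to 0.655 in all 10 pairs, so the libraries of a culture are paired, and the fit with that pairing changed no call of a member in efficiency. Alternatives were other pseudocounts (0.1 and 5), filters (none, and a mean of 20 RPKM) and scaling, a replicate block, and each culture left out.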

Additional observations from a re-analysis of the deposited data

Results flagged for a closer look

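The temperature effects of both strains differed, by the test of the difference itself, for 5 values of 3 genes. On the log2 scale, the effect in DBP1 cells minus that in DED1 cells was -2.17 for TSL1 mRNA (limma adjusted p = 0.0465), -1.28 for NTH2 mRNA (adjusted p = 0.0065), -2.64 for TSL1 footprints (adjusted p = 0.0171), -0.91 for NTH1 footprints (adjusted p = 0.0482) and -1.71 for NTH2 footprints (adjusted p = 0.00944). In each case DED1 cells at 30C had the lowest mean of the 4 groups. The NTH2 values passed in all alternative fits that tested them. Groups of 3 and 2 cultures are too small to be searched for outlying samples.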

How the results depend on the processing

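In the alternatives run, NTH2 between strains at 30C in both assays, and the higher values of TPS1, TPS2, TSL1, NTH1 and NTH2 at 37C in DED1 cells in both assays, kept direction and call wherever they were tested. The number of genes called moved as follows. For 37C against 30C in DBP1 cells, 1 mRNA passed with a filter at 20 RPKM, median-of-ratios scaling or a replicate block, and in footprints 0 passed with that scaling or the block and 2 with a pseudocount of 5. For the difference of strain effects, 1 mRNA passed with no filter or that scaling and 4 with the block, and 5 footprint values passed with the block. With single cultures left out, the counts ran from 1 to 5 (mRNA) and 2 to 5 (footprints) between strains at 30C, 1 to 2 and 0 to 1 for temperature in DBP1 cells, and 1 to 4 and 1 to 5 for the difference of effects. Where this leaves an arm with 1 culture, that culture is assumed to vary like the others. Same-numbered cultures of the strains had residual correlations of -0.0602 to 0.361 in mRNA and -0.161 to 0.479 in footprints. At 37C the values were 0.361 and 0.479, while at 30C not every culture correlated best with its own number. The main fits treat these cultures as unpaired. The mRNA and footprint fits with the replicate block treat them as paired.

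Values near 0 changed sign. In DBP1 cells at 37C against 30C, NTH1 mRNA was -0.0079 with median-of-ratios scaling, and TPS1 footprints were -0.058 with it and -0.083 with the replicate block. With cultures left out, TPS1 ran from -0.34 to 0.27 in mRNA and from -0.24 to 0.28 in footprints, TPS2 from -0.26 to 0.13 and from -0.27 to 0.13, and TPS3 footprints between strains at 37C from -0.0053 to 0.14. Efficiencies changed sign with a pseudocount of 5 for TPS2 (0.0017) and NTH2 (-0.0064) between strains at 30C, TSL1 between strains at 37C (-0.0017) and NTH2 between temperatures in DED1 cells (-0.26), and with median-of-ratios scaling for TPS1 (0.016) and NTH1 (0.00091) between strains at 37C and NTH1 in the difference of effects (0.036). With cultures left out, efficiencies between strains at 30C ran from -0.068 to 0.025 for TPS2, -0.087 to 0.14 for TPS3 and -0.049 to 0.033 for NTH1. At 37C they ran from -0.10 to 0.086 for TPS1, -0.036 to 0.18 for TPS2, -0.085 to 0.042 for NTH1 and -0.31 to 0.083 for NTH2. Between temperatures in DBP1 cells they ran from -0.0904 to 0.12 for TPS2 and -0.087 to 0.12 for TPS3, and in the difference of effects from -0.024 to 0.19 for TPS2 and -0.066 to 0.061 for NTH1. The cause was not tested for any of these.

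Over all genes, calls for the difference of mRNA effects went from 285 to 163 with median-of-ratios scaling and 523 with the block, and those for footprints between strains at 37C from 48 to 11 and 99, and to 30 with no filter. Efficiency calls between temperatures went from 49 to 10 in DED1 cells and from 51 to 21 in DBP1 cells with the stricter filter, and to 84 in DBP1 cells with none. Their splits, 7 higher and 42 lower and 3 and 48, went to 11 and 26 and 8 and 29 with median-of-ratios scaling. Of 192 ratios between members under alternatives, 191 stayed within 1 SD. Leaving out a single culture cannot move a ratio past that limit, so only the ratios of RPKM + 1 could have done so. The count is therefore no measure of how stable the ratios are.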
